A study of Rattus norvegicus with 48 samples.

Results

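The 100 kidney probes with the largest fall on a high salt diet were followed from the rats that chose them into rats given an antibody and into the left ventricle. The choice was made on quantile-normalised log2 signal of the 24 kidney arrays. It drew on the 8825 probes, of 22523 on the array, with a detection p-value below 0.05 in all 6 low salt control kidneys, and took the 100 with the most negative difference between the high and low salt control means. The high minus low salt difference in control rats is therefore a property of the selection and is described without a test. Of the 100 probes, 68 carried a gene symbol and stood for 67 genes, because the glucagon receptor gene Gcgr had 2 probes. The other 32 had no gene name in the platform annotation used here and are counted, with a few given by probe number.

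RNA came from the kidney and the left ventricle of male Dahl salt-sensitive rats of the SS/JrHsd strain, an inbred strain that becomes hypertensive when fed salt. Rats ate a diet with 0.1% or 8% NaCl from 6 weeks of age, and within each diet received 1 intraperitoneal dose of either a mouse IgG1 isotype control or a monoclonal anti-marinobufagenin antibody, each at 50 µg/kg. The 4 groups are called low salt control, high salt control, low salt antibody and high salt antibody, and each had 6 animals with 1 array per tissue, of 7 treated, so replicates were separate animals. The age label was 16 weeks in all groups, dosing was placed at week 7 of the diet and at 15 weeks of age, and the diet was given for 8 weeks, statements that do not add up from a start at 6 weeks. There were no untreated rats and no rats of a salt-resistant strain among these groups, and each group compared was dosed with an immunoglobulin.

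Marinobufagenin is an endogenous steroid that binds and inhibits the sodium pump, Na/K-ATPase, and rises in salt-loaded animals. The proximal tubule of the kidney reabsorbs most of the filtered salt, sugars and amino acids and secretes organic anions and cations through carriers of the Slc and Slco families. Later segments make uromodulin and epidermal growth factor and set the final excretion of salt, calcium and magnesium. In whole-organ RNA, fewer cells of a type and less RNA per cell cannot be told apart.

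The kidney arrays carried kidney transcripts: the thick ascending limb marker Umod, the distal tubule marker Slc12a3 and the collecting duct marker Aqp2 were detected on all 24, while the cardiac myosin gene Myh6 was detected on 0 kidney arrays and on all 24 ventricle arrays. Correlations between kidney arrays of 1 group ran from 0.949 to 0.996, and no arrays were identical. High salt control replicate 1 stood apart, with 10514 probes detected against 11038 to 11163 in the other 5 arrays of its group. Low salt control replicate 2 also stood apart in the values of several listed probes. Because both arrays fed the selection, the selection was repeated without them, and 72 of the 100 probes were chosen again. Leaving out only the first of them kept 81 of the 100, and leaving out only the second kept 71. The main salt test in the antibody groups is free of these 2 arrays except through the choice of probes, the detection filter and the shared quantile normalisation. Antibody values given relative to a control mean do contain them.

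In the control rats the 100 probes were lower on 8% NaCl by a median of -0.75 on the log2 scale, with a range from -1.76 to -0.64, against a median of -0.03 over the 8825 probes the choice drew from. Values around the threshold were nearly continuous. Ranks 96 to 100 lay between -0.644 and -0.642, and ranks 101 to 105, among them Afm, Pgrmc1, Akr7a3 and Tns1, lay between -0.639 and -0.631. For 39 of the 100 probes the high and low salt control arrays did not overlap, where 2.63% of all tested probes were lower and 2.42% higher without overlap, and nothing is read from this count because the choice used that contrast. The listed probes started from higher signal than the pool, with a median of 10.44 against 9.43 in low salt controls. That mean is part of the contrast used for the choice, so nothing is read from this level either.

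The most negative differences were in a mixed set of genes. They began with the unnamed probes ILMN_1374388 at -1.76 and ILMN_1369365 at -1.60, followed after a further unnamed probe by Cyp1a1, the P450 enzyme induced through the aryl hydrocarbon receptor, at -1.36. Ppp1r1b, which encodes a regulated inhibitor of protein phosphatase 1, differed by -1.17, and the 2 listed probes of the glucagon receptor Gcgr by -1.03. Gucy1b2, a subunit of soluble guanylate cyclase, differed by -1.03, Osgin1, an oxidative stress response gene, by -1.02, and Fst, the activin-binding protein follistatin, by -0.99. Slco1a6, an organic anion carrier, differed by -0.97, Nox4, the hydrogen peroxide producing NADPH oxidase of the tubule, by -0.92, and Slc5a3, the sodium-coupled carrier of the osmolyte myo-inositol, by -0.90. Asgr1, a subunit of the asialoglycoprotein receptor, stood at -0.90, the connexin gene Gjb2 at -0.89 and the acetyltransferase gene Nat8f1 at -0.88.

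These values belong to the chosen probes and not always to the gene. For 7 of the 67 genes the array held 8 further probes that were not chosen, and 6 of the 8 were tested. The third Gcgr probe, detected on 22 of 24 kidney arrays, differed by -0.07 between control diets, and the second Ppp1r1b probe, detected on all 24, by -0.21. Further probes of Akr1c12l1, Asrgl1, Slc25a30 and Ttc36 differed by -0.25, -0.28, -0.17 and -0.46. None of the 6 passed the test under the antibody.

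Each array was summarised by the median over the 100 probes of its log2 signal minus the low salt control mean. Low salt controls ran from -0.25 to 0.31 and high salt controls from -1.19 (replicate 1) to -0.35 (replicate 3). The 2 control groups did not overlap, but nothing is read from this gap because the choice used these arrays. Low salt antibody rats ran from -0.45 to -0.14 and high salt antibody rats from -0.41 to -0.02. The antibody groups overlapped each other over most of their ranges, and no antibody array was as low as the median high salt control at -0.75. That control median is itself made low by the choice of probes.

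**Figure D1:**
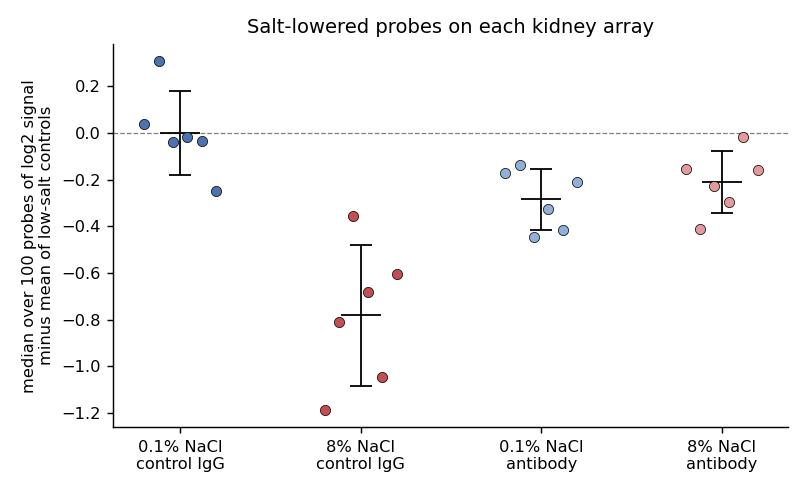
Each point is 1 kidney array, plotted as the median over the 100 probes of log2 signal minus the low salt control mean (vertical axis), by group (horizontal axis), with bars for the mean and SD of 6 animals. High salt controls reach from -1.19 to -0.35 and lie below all low salt controls, a gap that the choice of probes favours. The low salt (-0.45 to -0.14) and high salt (-0.41 to -0.02) antibody groups overlap.

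Summed intensities of the 12 cell type marker lists, with the listed probes Slc7a13 and Nphs1 left out of theirs, are given as the range over animals. In control rats the 9 remaining proximal tubule probes summed to 42870 to 65670 on high salt against 52310 to 69730 on low salt, and the 3 remaining podocyte probes to 2010 to 3590 against 3131 to 5937. The 4 fibroblast and mural cell probes summed to 15150 to 26390 against 12200 to 15410, and the 3 leukocyte probes to 4370 to 5919 against 2911 to 4506. All of these ranges overlapped, the last 2 narrowly with the higher values on high salt. The 6 collecting duct probes reached 39050 on high salt and 9750 on low salt, and the 4 red cell probes ran from 6826 to 67920 against 3564 to 61940. Within the red cell list Hbb was higher on high salt by 1.23 and Hbb-b1 by 1.20 in the mean log2 signal, while Alas2 was detected on 3 and Hba-a2 on 4 of the 24 kidney arrays. Sums of the thick ascending limb, distal convoluted tubule, intercalated cell, endothelium, adipose or adrenal and cardiomyocyte lists also overlapped between the 2 control groups. In the antibody groups the sums on high and low salt were 37770 to 62660 against 52870 to 76840 for the proximal tubule, 11160 to 19680 against 11010 to 16560 for fibroblasts, 3528 to 5595 against 3736 to 5267 for leukocytes, and 4749 to 15120 against 8780 to 22690 for red cells. Thick ascending limb sums were 46610 to 62570 against 36860 to 54560, and distal convoluted tubule sums 7976 to 18080 against 4744 to 10800. Intercalated cell sums were 13330 to 18520 against 12120 to 14630, and endothelial sums 4345 to 5487 against 5098 to 7297. Collecting duct sums were 6014 to 18680 against 4988 to 18020, and podocyte sums 2686 to 4000 against 2817 to 3580. All these antibody ranges overlapped, as did the adipose or adrenal and cardiomyocyte ones. The part of these markers in the listed probes' values was not tested.

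The salt comparison was then made in the 12 antibody-treated rats, none of which entered the choice, by limma on those 12 arrays with Benjamini-Hochberg adjustment over 11534 tested probes. There 4 of the 100 probes were lower on high salt (Cyp24a1, Slc6a6, Pals2 and Vwf) and 0 were higher, at an adjusted p below 0.05. Over all tested probes 2.19% were lower and 1.67% higher, and over the 8825 probes the choice drew from 2.70% were lower and 1.68% higher, so 4 of 100 was close to the background. At an unadjusted limma p below 0.05, 9 of the 100 were lower and 16 higher, where 1197 of the 11534 tested probes were lower and 1237 higher. The median difference of the 100 was 0.07, with 33 negative and 67 positive values from -1.06 for Nox4 to 0.73 for Fst, beside a median of 0.01 over all tested probes. The 95% interval of the difference spanned 0 for 75 probes, and for 92 of 100 it excluded a fall of 1.5-fold or more. Groups did not overlap for 2 probes, both lower, where the background was 1.21% lower and 1.07% higher over all tested probes and 1.35% and 1.10% over the probes the choice drew from.

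The 4 calls rested on small margins. With each array shifted to a common median in place of quantile normalisation, 0 of the 100 were lower and 5 higher (Egf, Mybl1, Prep and 2 unnamed probes), and over all tested probes 153 were lower and 227 higher, where the lower calls had been the more numerous. Leaving out high salt antibody replicate 4, or low salt antibody replicate 3, 4, 5 or 6, removed all 4 calls. Without high salt antibody replicate 1, 2, 3 or 5, 1 or 2 of the 100 remained lower, and without replicate 2 Egf was higher. Without low salt antibody replicate 2, Nox4 took the place of Slc6a6 among 4 lower calls. Without high salt antibody replicate 6 there were 6 lower and 3 higher, beside 585 lower and 525 higher of all 11534 tested probes. Without low salt antibody replicate 1 there were 4 lower and 8 higher, beside 475 lower and 410 higher of all tested probes. Calls over all probes thus rose in both directions without high salt antibody replicate 6 or low salt antibody replicate 1.

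**Figure D2:**
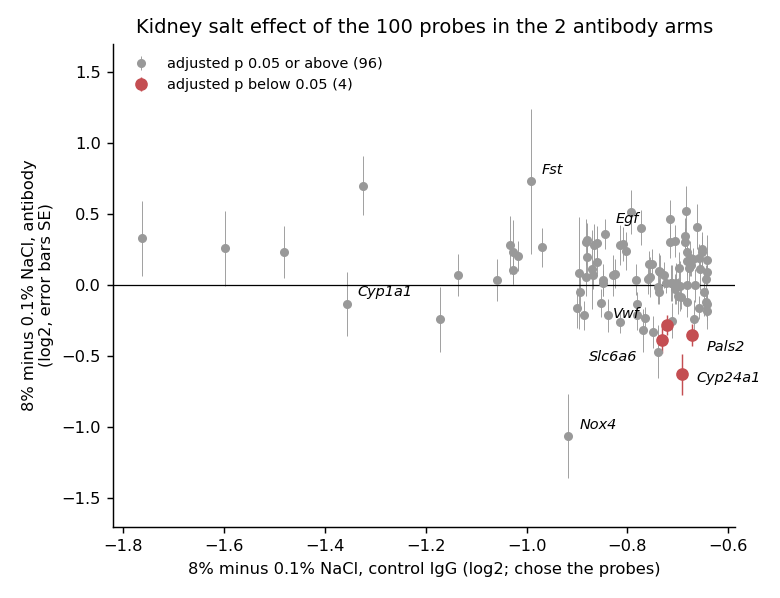
Each point is 1 of the 100 probes, with the high minus low salt difference (log2) in control IgG kidneys on the horizontal axis, which chose the probes, and in antibody-treated kidneys on the vertical axis, with bars for the SE (6 against 6 animals). The points scatter around 0 on the vertical axis with a median of 0.07, and the 4 called probes lie between -0.63 and -0.28.

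Cyp24a1 encodes the 24-hydroxylase that breaks down active vitamin D. Its log2 signal was 12.68 to 13.41 (median 12.86) in low salt antibody kidneys and 11.96 to 12.81 (median 12.28) in high salt antibody kidneys. Only the highest of the high salt animals reached into the low salt range. The difference was -0.63 ± 0.15 (SE, n = 6 per group, limma adjusted p = 0.0341), and the described difference in control rats was -0.69. Over 20 alternative settings the adjusted p of Cyp24a1 ran from 0.00290 to 0.167, below the threshold in 8 of them. Among 13 tested probes of calcium, magnesium and vitamin D genes, Cyp24a1 was the 1 lower probe and 0 were higher, with a median of 0.03.

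Pals2 encodes a membrane-associated guanylate kinase scaffold of cell junctions. Its log2 signal was 11.23 to 11.49 (median 11.27) in low salt antibody kidneys and 10.78 to 11.12 (median 11.00) in high salt antibody kidneys. All 6 high salt animals lay below all 6 low salt animals. The difference was -0.35 ± 0.07 (SE, n = 6 per group, limma adjusted p = 0.0253), and the described difference in control rats was -0.67. Its adjusted p ran from 0.00688 to 0.0990 over 20 alternatives and was below the threshold in 12.

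Slc6a6 encodes the sodium- and chloride-dependent taurine transporter. Its log2 signal was 9.48 to 9.96 (median 9.64) in low salt antibody kidneys and 9.03 to 9.61 (median 9.29) in high salt antibody kidneys. The high salt group was lower with overlap in its highest animal. The difference was -0.38 ± 0.10 (SE, n = 6 per group, limma adjusted p = 0.0442), with adjusted p from 0.0210 to 0.139 over 20 alternatives and below the threshold in 5.

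Vwf encodes von Willebrand factor, the platelet-binding glycoprotein made by endothelium. Its log2 signal was 9.997 to 10.39 (median 10.06) in low salt antibody kidneys and 9.66 to 9.97 (median 9.82) in high salt antibody kidneys. The groups did not overlap, and the highest low salt animal, replicate 2, stood apart from the other 5 at 9.997 to 10.11. The difference was -0.28 ± 0.07 (SE, n = 6 per group, limma adjusted p = 0.0453), with adjusted p from 0.0118 to 0.461 over 20 alternatives. None of the 2 tested endothelial marker probes passed the test, and their median was -0.20.

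Nox4 had the most negative difference of the 100 probes in antibody-treated kidneys and did not pass the threshold. Its log2 signal was 9.63 to 10.82 (median 10.63) on low salt and 8.77 to 10.82 (median 9.24) on high salt. In 5 high salt animals Nox4 lay at 8.77 to 9.47, below every low salt animal, and the sixth, replicate 6, stood at 10.82. The difference was -1.06 ± 0.29 (SE, n = 6 per group, limma adjusted p = 0.0598), with adjusted p from 0.00181 to 0.131 over 20 alternatives. Without high salt antibody replicate 6 it was among the probes called lower. In the described control comparison Nox4 was 10.22 to 10.91 on low salt and 9.11 to 10.25 on high salt. Oxidant and glutathione genes as a list had 3 lower probes (Sod3, Cat and Gstt2) and 0 higher of 25 tested, with a median of -0.11. The listed Gsta5, a glutathione transferase, and Gclm, the modifier subunit of glutamate-cysteine ligase, had differences of 0.16 ± 0.08 and 0.24 ± 0.11, and neither passed the test.

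Cyp1a1 had the most negative value among named genes in the contrast that chose the list, and it did not pass the test under the antibody. Its log2 signal was 9.66 to 10.60 (median 9.85) in low salt controls and 7.82 to 10.27 (median 8.34) in high salt controls. The high salt controls were all below the low salt controls except replicate 3, at 10.27. With the antibody Cyp1a1 was 10.11 to 11.00 (median 10.54) on low salt and 9.68 to 11.15 (median 10.33) on high salt, and the low salt range lay inside the high salt range. The difference was -0.13 ± 0.22 (SE, n = 6 per group, limma adjusted p = 0.786), with a 95% interval from -0.61 to 0.35. Of 26 tested P450 and steroid enzyme probes 3 were lower (Ephx1, Hsd17b2 and Cyp2c23) and 1 higher (Hsd11b2).

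Carriers of organic ions and amino acids contributed 5 of the 100 probes, and 0 of the 5 passed the test under the antibody. Slc7a13, an amino acid carrier of the late proximal tubule, was 14.73 to 15.46 (median 15.17) in low salt and 13.82 to 15.20 (median 14.43) in high salt controls. In antibody-treated rats it was 14.82 to 15.38 (median 15.07) on low salt and 15.26 to 15.57 (median 15.41) on high salt. The high salt animals were here the higher ones with some overlap, at a difference of 0.30 ± 0.10 (SE, n = 6 per group, limma adjusted p = 0.0896). The organic cation carrier Slc22a2 differed by 0.29 ± 0.12, the organic anion carrier Slco1a6 by 0.27 ± 0.14, the peptide carrier Slc15a2 by 0.17 ± 0.10 and the urate and organic anion carrier Slc17a3 by 0.04 ± 0.11. None of these 4 differences passed the test. Over the whole list of these carriers, 3 of 24 tested probes were lower under the antibody (Slc13a3, Slc22a8 and Slc7a7) and 0 higher, with a median of -0.18. In the antibody groups the 9 tested proximal tubule marker probes had 2 lower (Slc13a3 and Slc22a8), 0 higher and a median of -0.52, so that Slc7a13, which is also on that list, differed in sign from its median.

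Among genes of later nephron segments, salt handling and the glomerulus, the described Cyp24a1 was the only listed member to pass the test. Egf, the precursor of epidermal growth factor made in the distal nephron, was 13.66 to 14.04 (median 13.78) in low salt and 11.95 to 13.64 (median 13.13) in high salt controls. With the antibody Egf was 13.24 to 13.83 (median 13.56) on low salt and 13.52 to 14.16 (median 13.96) on high salt, the reverse order with overlap. That difference was 0.36 ± 0.11 (SE, n = 6 per group, limma adjusted p = 0.0728), with adjusted p from 0.0159 to 0.436 over 20 alternatives. In the same comparison the 4 tested thick ascending limb marker probes had a median of 0.61. The 2 tested distal convoluted tubule probes had a median of 0.43, and 0 probes of either list passed the test. Slc9a3, the apical sodium-hydrogen exchanger, differed by -0.0046 ± 0.18, Agt, the angiotensin precursor, by 0.25 ± 0.12, and the podocyte gene Nphs1 by 0.06 ± 0.14, and none of the 3 passed the test. In the sodium and chloride list 1 of 21 tested probes was lower (Slc4a4) and 3 higher (Scnn1b, Scnn1g and Hsd11b2), and in the renin-angiotensin list 0 of 8 passed in either direction, with Agt its only listed probe among the 100.

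**Figure D3:**
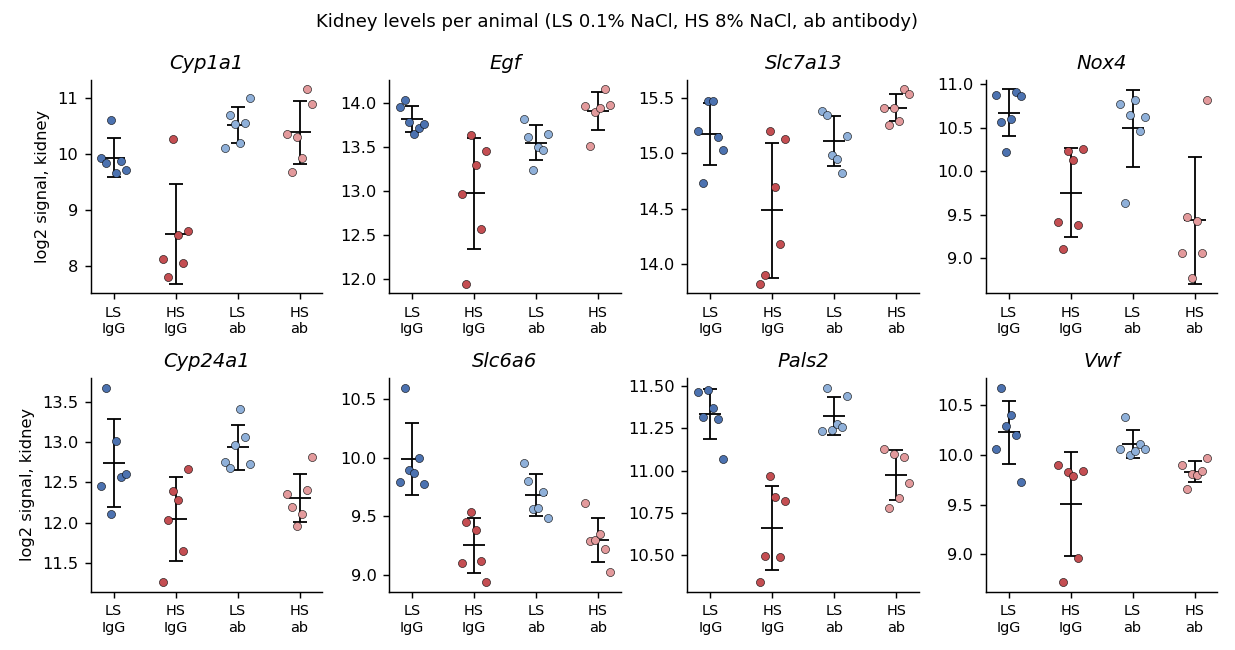
Each panel plots the log2 signal of 1 gene in every kidney (vertical axis) for low salt (LS) and high salt (HS) rats given control IgG or the antibody (ab), with the mean and SD of 6 animals. Pals2 and Vwf separate the 2 antibody groups fully, Nox4 separates them but for 1 high salt animal at 10.82, and the mean of Egf and of Slc7a13 is higher on high salt under the antibody, without passing the test.

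The most positive differences under the antibody were not called either. Fst differed by 0.73 ± 0.51, with high salt antibody kidneys spread from 8.47 to 11.38. The unnamed probe ILMN_1355770 differed by 0.70 ± 0.21 (SE, n = 6 per group, limma adjusted p = 0.0728), ILMN_1352516 by 0.52 ± 0.18, the olfactory receptor gene Or2n1e by 0.52 ± 0.16 and the MYB family gene Mybl1 by 0.47 ± 0.13. Named genes not described here ran from Igsf11 at -0.47 to Chd6 at 0.41, and the 32 unnamed probes from -0.33 to 0.70, with no call among them. For comparison of counts, the 100 probes most raised by salt in control rats, chosen by the same rule in the other direction, had 0 lower and 12 higher in the antibody rats, with a median of 0.18. Over all tested probes 2.19% were lower and 1.67% higher, so in the main fit the 12 higher calls stood above that share, unlike the 4 lower calls of the lowered list. Counts of the raised list under other settings are not given here.

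The antibody contrasts within a diet share arrays with the choice and are given only side by side. High salt antibody minus high salt control had a median of 0.58 over the 100 probes and shares the high salt control arrays, low salt antibody minus low salt control had a median of -0.30 and shares the low salt control arrays, and high salt antibody minus low salt control had a median of -0.22. The medians over all tested probes were 0.0097, 0.0016 and 0.0044. A probe chosen for a high mean in low salt controls and a low mean in high salt controls tends to give differences of these signs against those arrays. For Cyp1a1 the within-diet differences were 1.81 on high and 0.58 on low salt, for Egf 0.94 and -0.27, for Nox4 -0.32 and -0.18, and for Cyp24a1 0.26 and 0.19.

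What the probes shared beyond the choice was seen in how they varied among animals of 1 group. Deviations from the group mean over the 12 antibody arrays correlated with a median r of 0.39 over the 4950 pairs of listed probes, and 37.4% of pairs exceeded 0.5, beside a median of -0.0016 and 10.7% for listed probes paired with other probes of the pool. These arrays share depth, tissue dissection and normalisation, and the correlation is a description. In 71 of the 100 probes r with the median of the others exceeded 0.5, led among named genes by Asrgl1 at 0.91, Slc15a2 at 0.88, Chd6 at 0.87 and Egf at 0.87. It was negative in 8, which were Camk2n1, Igsf11, Nox4, Hjv, Nphs1, Cyp24a1, Ttc36 and Anp32a. Of the probes called lower under the antibody, r was -0.16 for Cyp24a1, 0.24 for Slc6a6, 0.54 for Vwf and 0.69 for Pals2. Cyp24a1 and Slc6a6 thus stayed below 0.5. High salt antibody replicate 5 had 90 of the 100 probes above its group mean and replicate 2 had 14, while low salt antibody replicate 2 had 80 and replicate 3 had 13. The mean number of detected probes was 10675 on high salt and 10332 on low salt under the antibody, a difference of 343 (exact permutation test over 924 splits, two-sided p = 0.0671, adjusted p = 0.106 over 2 array measures). Its part in the listed probes' values was not tested.

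Promoter sequences are shown for 3 genes, Slc6a6 and Pals2 as called members with a sequence in the RefSeq table and Gclm, which was not called in the kidney, as a textbook target of the oxidant-responsive factor Nrf2. They cover the 250 bases before the annotated start, on build GRCr8, 5′ to 3′ on the gene's strand. Capitals mark matches to any of 4 motifs searched on both strands: TGACNNNGC (antioxidant response core), TNGCGTG (dioxin response core), AGGTCA (nuclear receptor half-site) and GTTAAT (HNF1 half-site). Slc6a6 lies at chr4:125752252-125752501, Gclm at chr2:213031885-213032134 and Pals2 at chr4:80504048-80504297, all on the plus strand.
Slc6a6: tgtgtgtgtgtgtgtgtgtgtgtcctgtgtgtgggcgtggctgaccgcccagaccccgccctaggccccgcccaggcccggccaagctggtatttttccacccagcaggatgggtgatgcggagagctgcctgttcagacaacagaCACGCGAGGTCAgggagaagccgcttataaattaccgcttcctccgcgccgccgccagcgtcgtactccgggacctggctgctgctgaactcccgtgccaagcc
Gclm: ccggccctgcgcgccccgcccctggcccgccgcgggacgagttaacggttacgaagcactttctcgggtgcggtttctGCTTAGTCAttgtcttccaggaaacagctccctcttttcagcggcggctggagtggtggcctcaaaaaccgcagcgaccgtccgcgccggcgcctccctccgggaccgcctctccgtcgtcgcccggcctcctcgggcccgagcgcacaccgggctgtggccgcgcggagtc
Pals2: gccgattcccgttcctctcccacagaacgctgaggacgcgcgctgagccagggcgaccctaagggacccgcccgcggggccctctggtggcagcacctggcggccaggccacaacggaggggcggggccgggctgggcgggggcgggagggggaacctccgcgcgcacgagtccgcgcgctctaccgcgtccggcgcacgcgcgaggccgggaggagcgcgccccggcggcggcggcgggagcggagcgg
In Slc6a6 the capitals hold overlapping matches to 3 of the motifs, at positions -104, -101 and -98 from the start, and in Gclm 1 antioxidant core on the reverse strand at -172. Pals2 held none of these letters in the window. Of the 67 genes, 50 had a promoter in the table. The antioxidant core was in 4 of them (8%, against 10.2% of 27457 promoters), the dioxin core in 3 (6% against 4.26%), the nuclear receptor half-site in 9 (18% against 13.7%) and the HNF1 half-site in 5 (10% against 6.46%). These are descriptions of letters in a window, and no binding was measured.

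Many of the listed probes were not detected in the heart. In low salt control ventricles 34 of 100 were detected on all 6 arrays and 39 on none, whereas 68.2% of the pool was detected on all 6 and 13.5% on none. Of the 100 most raised probes 77 were detected on all 6 and 11 on none. The 42 listed probes detected on at least 6 of the 24 ventricle arrays were tested there. This filter, the same for all tested probes, let in probes detected on low salt arrays alone, which favours lower calls on high salt. ILMN_1369211, called lower in both arms, was detected on 3 low salt control, 4 low salt antibody and 0 high salt arrays. With detection at p below 0.01 on all 24 arrays, 6 listed probes remained.

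In the ventricle high salt went with dim arrays, and counts in it are read against a large background. Probes detected numbered 3859 to 5509 in high salt antibody and 4903 to 7033 in high salt control ventricles, against 7475 to 8356 and 7504 to 8248 on low salt. Under the antibody 25 of the 42 listed probes were lower and 2 higher on high salt, where 42.0% of the 8354 tested probes were lower and 26.1% higher, and 45.5% and 22.5% of those also in the kidney pool. With control IgG 23 were lower and 3 higher, against 34.6% and 26.8% of all tested probes and 37.6% and 24.7% of those in the kidney pool. The member medians were -0.24 under the antibody and -0.23 with control IgG, beside -0.13 and -0.05 over all tested probes. With arrays shifted to a common median, 19 listed probes were lower and 20 higher under the antibody, beside 3716 lower and 3329 higher of all 8354. With control IgG 15 were lower and 12 higher, beside 3013 lower and 3269 higher of all 8354. The strong lean of the listed probes towards lower calls thus did not hold under that scaling. Of the 25 lower probes 14 were detected on 0 of the 6 high salt antibody arrays and have only a bound there, and 4 were detected on all 6. Of the 23 lower with control IgG, 7 were detected on 0 of the 6 high salt control arrays and 3 on all 6. The part of array brightness in these calls was not tested.

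Slc6a6 went up in the ventricle where it went down in the kidney. Its ventricular log2 signal was 7.76 to 7.97 (median 7.87) in low salt antibody and 8.15 to 8.82 (median 8.64) in high salt antibody rats, without overlap. The difference was 0.71 ± 0.10 (SE, n = 6 per group, limma adjusted p = 1.79e-05), and with control IgG it was 0.49 ± 0.12 (limma adjusted p = 0.00306). With arrays shifted to a common median the differences of Slc6a6 were 0.11 and 0.23 and neither passed the threshold. The other higher probe under the antibody was ILMN_1355770, at 0.63 ± 0.17, and with control IgG the higher probes were Slc6a6, ILMN_1355770 and Gclm, the last at 0.35 ± 0.11. The sign of Gclm turned under median shifting, to -0.40.

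Pals2 was lower in both tissues. Its ventricular log2 signal was 7.91 to 8.25 (median 8.10) in low salt antibody and 6.80 to 7.01 (median 6.85) in high salt antibody rats, and in the latter it was detected on 0 of 6 arrays. The measured difference was -1.22 ± 0.07 (SE, n = 6 per group, limma adjusted p = 7.14e-09). Because the high salt signal was not above background, it is given as at least 1.36-fold higher on low salt, taking for each dim array the larger of the lowest signal among its detected probes and the probe's own. With control IgG the difference was -0.68 ± 0.11 (limma adjusted p = 0.000134), with the probe detected on 2 of 6 high salt arrays. Cyp24a1 and Nox4 were not tested in the ventricle, and Vwf did not pass the test there, at -0.23 ± 0.15 under the antibody.

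The difference between tissues was tested on each animal's kidney minus ventricle value in the antibody groups. Of the 42 probes, 1 had a lower salt effect in the kidney (Slc6a6) and 22 a higher one, where 23.0% of the 7879 probes tested in both tissues were lower and 36.7% higher. For Slc6a6 the kidney minus ventricle difference in salt effect was -1.09 ± 0.11 (SE, n = 6 per group, limma adjusted p = 4.49e-07). With arrays shifted to a common median, the salt effects of Slc6a6 under the antibody were smaller, -0.32 in the kidney and 0.11 in the ventricle. Neither of them passed the threshold. For Pals2 the kidney minus ventricle difference was 0.87 ± 0.11, with the ventricular signal on high salt not above background. The second probe of Gcgr, ILMN_1650247, differed by 0.75 ± 0.22, with its ventricular signal detected on 0 of 6 high salt antibody arrays, and the first, ILMN_1376835, by 0.36 ± 0.25 without passing the test.

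**Figure D4:**
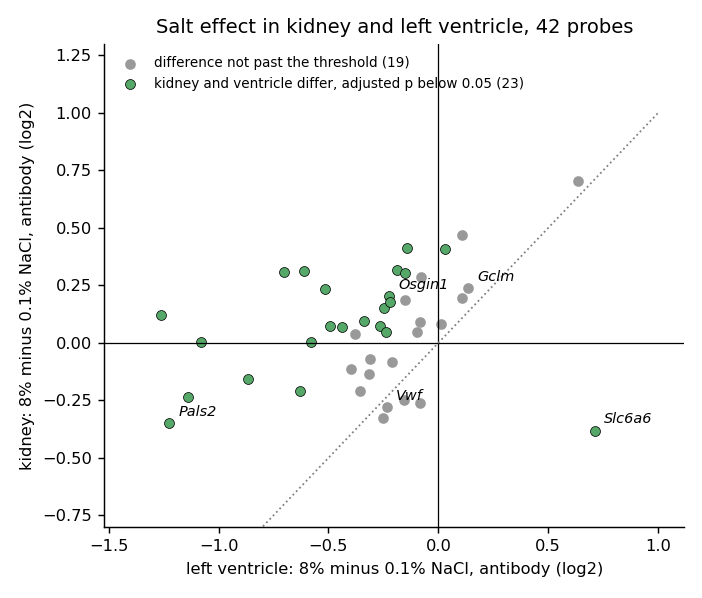
Each point is 1 of the 42 probes tested in both tissues, with the high minus low salt difference (log2) under the antibody in the left ventricle on the horizontal axis and in the kidney on the vertical axis, and a dotted line of equal effect. Slc6a6 lies alone at lower right, at 0.71 in the ventricle and -0.38 in the kidney, and the other 22 probes whose effects differ lie above the line.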

How the data were processed

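The data were 48 Illumina bead arrays with 1 colour, 6 per group in 8 groups of diet, antibody and tissue. The deposited intensities are linear and not normalized between arrays, per the file headers, and each came with a detection p-value given by the authors. The authors also deposited scores per probe and array, which matched z-scores of log10 intensity within an array with a largest difference of 0.00649 in the kidney. The submitters' processing notes list GenomeStudio 2011.1. For background subtraction, chip and array position, nothing was given in the sources used here. No chip could therefore be a block, and precision is limited by the number of arrays.

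The deposited intensities were log2-transformed and quantile normalised here over the 24 arrays of each tissue. Probes with detection p below 0.05 on at least 6 of 24 arrays were tested with limma 3.58.1 in R 4.3.3, on the 12 arrays of the groups compared, with Benjamini-Hochberg adjustment over all tested probes and a threshold of 0.05. The method was tested on simulated data. Probes were named by the platform annotation, with 13793 probes given 1 symbol, 0 several and 8730 none. Promoters came from RefSeq. Named probes are the 20 steepest, those called under the antibody, the 5 most positive there, and members of the marker and pathway lists. The members and lists were chosen with earlier results of these data known. Alternatives were neqc, median scaling, the authors' scores, other filters, all 4 groups, array weights, a replicate block and leaving out arrays.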

Additional observations from a re-analysis of the deposited data

Results flagged for a closer look

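Of 156 groups of 6 arrays examined for the named probes and array measures, 16 held a sample far from the other 5, and chance alone flags about 1 group in 20. Cyp1a1 stood at 10.6 in low salt control replicate 3 (others 9.66 to 9.93) and at 10.27 in high salt control replicate 3 (others 7.82 to 8.63). In low salt control replicate 2, 2 unnamed probes stood at 15.12 and 15.24 (others 13.25 to 13.51 and 13.36 to 13.58) and Slc6a6 at 10.6 (others up to 9.997). In low salt antibody replicate 2, Nox4 was low at 9.63 (others 10.46 to 10.82) and Vwf high at 10.39 (others 9.997 to 10.11). Nox4 was high in high salt antibody replicate 6, at 10.82 (others 8.77 to 9.47). High salt antibody replicate 5 was high for Slco1a6 at 11.86 (others 10.93 to 11.09) and Mybl1 at 11.46 (others 10.54 to 10.86). Gsta5 was low in low salt control replicate 6, at 13.37 (others 13.68 to 13.85).

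High salt control replicate 1 was low for Gsta5 at 11.96, for Agt at 9.61, in detected probes at 10514 and in the 95th percentile of log2 signal at 10.96 (others 11.98 to 12.23). In low salt antibody replicate 1 detection reached 10925 probes, beside 10077 to 10357 in its group. The salt effect under the antibody differed between kidney and ventricle for 23 of 42 listed probes by the test on each animal's tissue difference, lower in the kidney for 1 and higher for 22. Over the 7879 probes tested in both tissues, 23.0% were lower and 36.7% higher, so such differences were common among all probes.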

How the results depend on the processing

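Kidney counts under the antibody moved with most settings. Listed probes lower and higher were 2 and 0 with neqc, 0 and 5 with median scaling, 2 and 3 with the authors' scores, 2 and 0 with no filter, 1 and 0 with all 4 groups in the fit, and 7 and 13 with array weights. Over all tested probes, 153 were lower with median scaling, 501 higher with the authors' scores, 144 lower and 64 higher with all 4 groups, and 925 lower and 858 higher with array weights. Leaving out 1 array gave 0 to 6 listed probes lower and 0 to 8 higher, and 39 to 585 lower and 31 to 525 higher over all probes. Same-numbered animals of the 2 groups did not deviate together (correlations from -0.34 to 0.22), so the numbers do not pair them. With a replicate block 0 listed probes were lower, and 8 probes were lower and 10 higher over all.

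In the ventricle under the antibody, median scaling gave 20 listed probes and 3329 of all probes higher. It turned Osgin1 to 0.19, Slc5a3 to 0.40, an unnamed probe to 0.20 and Gclm to -0.93, and the authors' scores turned Gclm to -0.52. With no filter 5 listed probes were higher. With detection at p below 0.01 on all 24 arrays 4 of the 6 listed probes left were lower and 1 higher (538 and 874 of 1859 over all). With control IgG median scaling gave 15 lower and 12 higher listed probes, with 3013 lower and 3269 higher over all. It turned Osgin1 to 0.29, Slc5a3 to 0.18, the unnamed probe to 0.018, Mybl1 to 0.29 and Gclm to -0.40. The strict filter gave 2 of 6 listed probes lower and 2 higher, with 485 lower and 887 higher over all. Leaving out 1 array gave 22 to 27 listed probes lower and 2 higher under the antibody, and 21 to 24 lower and 3 to 4 higher with control IgG. Over all probes it gave 3331 to 3672 lower and 2024 to 2230 higher under the antibody, and 2651 to 3210 lower and 2066 to 2392 higher with control IgG. The tissue difference kept 1 lower and 16 to 25 higher listed probes, with 1685 to 1845 lower and 2669 to 3051 higher over all. The causes were not tested.

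The choice itself kept 68 of 100 probes on neqc values, 80 on the authors' scores, 90 on median-scaled values and 71 to 96 with 1 array left out. These alternative lists held 3 to 7 lower and 0 to 1 higher probes under the antibody. Dim ventricle arrays limit what can be said of probes near background.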

Other observations

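The probes of 3 genes of taurine supply were among the 100 probes, a set picked after their values were seen. Cdo1 and Csad encode enzymes that make the taurine precursor hypotaurine from cysteine, and Slc6a6 carries taurine into cells. The rule differences were -0.88 for Cdo1, -0.87 for Csad and -0.73 for Slc6a6. Under the antibody the kidney differences were 0.32 ± 0.12 for Cdo1 (limma adjusted p = 0.149) and 0.07 ± 0.10 for Csad (limma adjusted p = 0.725), and neither passed the test, while Slc6a6 was lower. In the ventricle under the antibody Csad was lower by -0.44 ± 0.11 (limma adjusted p = 0.00255), detected on 1 of 6 high salt arrays, and Slc6a6 was higher.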
